A study of Mus musculus with 2 samples.

Results

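NK barcodes were the droplet barcodes of 2 spleen Treg libraries that carried transcripts of natural killer (NK) cell receptors and next to none of the T and B cell receptor complexes. They were chosen by measured values: a barcode that passed the filters (at least 500 genes and at most 10% mitochondrial counts) was a member when its Ncr1, Klrb1c and Klre1 counts of unique molecular identifiers (UMIs) summed to at least 2, its Cd3d, Cd3e and Cd3g counts summed to at most 1, and its Cd79a count was at most 1. This gave 341 members of 16424 barcodes, 182 of 8634 in the library from Foxp3YFP-CreKmt2dfl/fl mice (fl/fl) and 159 of 7790 in the library from Foxp3YFP-CreKmt2d+/+ mice (+/+). The study asked how KMT2D, a histone H3 lysine 4 methyltransferase, acts in regulatory T (Treg) cells, through droplet-based 10x Genomics 3′ sequencing of cells sorted from spleen as CD4+FoxP3+. In both genotypes the Foxp3 locus drives a Cre recombinase joined to a yellow fluorescent protein (YFP-Cre), so Cre itself does not differ between them, and the fl/fl mice carry in addition a floxed Kmt2d. Each library pooled 3 mice of 1 genotype, ages and sexes are not in the labels, and 1 library per genotype allows no test across replicates. Every value below describes these 2 libraries, and every interval is a 95% interval of counting error only, which takes in neither the spread between mice nor that between cells.

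NK cells are innate lymphocytes that kill infected or transformed cells without a rearranged antigen receptor. They read target cells through pairs of activating and inhibitory receptors, many of them encoded together in the NK gene complex on mouse chromosome 6, release granules of perforin and granzymes, and secrete interferon gamma and chemokines. In the spleen they mature through stages that lose CD27 and gain CD11b and KLRG1, and interleukin 15 read through IL2RB keeps them alive.

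NK barcodes made up 2.11% (1.82 to 2.43) of the filtered fl/fl barcodes and 2.04% (1.74 to 2.38) of the filtered +/+ barcodes, shares that differed by less than either interval. They held 874519 UMIs in fl/fl and 750029 UMIs in +/+. The median depth was 3969 UMIs and 1850.5 genes in fl/fl and 4145 UMIs and 1921 genes in +/+, with ranges of 700 to 17267 and 2133 to 28415 UMIs. Mitochondrial counts had medians of 1.91% and 2.09%. Of all filtered barcodes, 197 (2.28%) in fl/fl and 211 (2.71%) in +/+ were called doublets, and none of the NK barcodes was among them. The lack of a call does not show that the members are single cells. In +/+, members of 28415 and 22253 UMIs held 424 and 182 UMIs of a list of B cell genes. In fl/fl, a member of 9056 UMIs held 182. The libraries had 15 barcode sequences in common, none of an NK barcode in either library.

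The 3 rule genes encode NK receptors, and their levels describe the choice and support nothing. Ncr1 (ENSMUSG00000062524, chr7:4337724-4345164, plus strand, GRCm38 as all coordinates here) encodes NKp46, an activating receptor, Klrb1c (ENSMUSG00000030325, chr6:128778485-128789215, minus strand) the NK1.1 antigen, and Klre1 (ENSMUSG00000050241, chr6:129577905-129585827, plus strand) a lectin-like receptor of the NK gene complex. The sum of the 3 genes had a median of 10 UMIs (range 2 to 53) per fl/fl member and 12 UMIs (2 to 36) per +/+ member. Ncr1 was at 0 in 18 of the 182 fl/fl and 14 of the 159 +/+ members, Klrb1c in 33 and 19, and Klre1 in 3 and 2. The promoter windows of these 3 genes, from 250 bases before to 50 after the first listed start, are shown because the genes chose the members and stand below 10 CPM in the Cd8 T, Cd4 T and B barcodes of the same libraries. In Cd3-positive barcodes with NK markers Ncr1 was at 184 and 113 CPM, Klrb1c at 152 and 152 CPM and Klre1 at 642 and 512 CPM in fl/fl and +/+. Levels are given as CPM, the UMIs of a class of barcodes scaled to a total of 1000000. The sequences are from RefSeq (GRCm38.p6), written 5′ to 3′ on the gene's strand, and span chr7:4337465-4337764 (plus strand) for Ncr1, chr6:128788592-128788891 (minus strand) for Klrb1c and chr6:129577963-129578262 (plus strand) for Klre1. Capitals mark TGTGGT or its reverse complement ACCACA, the core letters bound by RUNX factors.
Ncr1: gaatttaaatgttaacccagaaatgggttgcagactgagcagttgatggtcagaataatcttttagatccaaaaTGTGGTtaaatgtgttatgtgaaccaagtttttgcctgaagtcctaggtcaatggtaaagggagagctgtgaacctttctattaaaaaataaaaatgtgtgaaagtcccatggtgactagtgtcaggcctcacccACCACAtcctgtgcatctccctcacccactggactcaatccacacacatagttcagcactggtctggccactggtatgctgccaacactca
Klrb1c: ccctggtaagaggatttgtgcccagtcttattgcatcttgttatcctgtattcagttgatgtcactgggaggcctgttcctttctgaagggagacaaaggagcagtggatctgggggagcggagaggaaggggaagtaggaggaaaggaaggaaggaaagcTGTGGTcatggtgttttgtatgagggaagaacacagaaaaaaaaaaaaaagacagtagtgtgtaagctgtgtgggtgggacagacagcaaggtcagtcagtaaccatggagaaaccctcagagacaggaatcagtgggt
Klre1: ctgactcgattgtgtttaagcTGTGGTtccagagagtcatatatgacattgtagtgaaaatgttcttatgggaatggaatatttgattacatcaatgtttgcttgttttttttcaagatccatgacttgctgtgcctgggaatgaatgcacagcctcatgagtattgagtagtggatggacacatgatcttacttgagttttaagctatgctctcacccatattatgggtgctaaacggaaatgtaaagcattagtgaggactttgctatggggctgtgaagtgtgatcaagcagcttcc
TGTGGT on either strand stood in each of the windows shown, 2 times in Ncr1 and 1 time each in Klrb1c and Klre1. The table lists a second start for Ncr1, whose window also held it 2 times, and a second start for Klre1, whose window held it 0 times. The same letters stood in 16.8% of all 32851 promoter windows of that table. No window of these genes held AGGTGT (T-box factors, either strand, 13.7% of all windows) or AGGAAGT (ETS factors, either strand, 9.35% of all windows). A match is a run of letters and not a shown binding site. Runx1, which encodes one such factor, was at 799 CPM in fl/fl and 841 CPM in +/+, and Runx3 at 273 CPM in fl/fl and 197 CPM in +/+.

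The thresholds fell in a thinly filled range. A marker sum of 2 was reached by 2 fl/fl and 3 +/+ members, and a sum of 2 or 3 by 7 and 6, while 175 and 153 members had at least 4. Just outside, at a marker sum of 1 with the other limits met, were 8 fl/fl and 10 +/+ barcodes, of which 1 in each library held a Gzma UMI. A Cd3 sum of 1 was seen in 18 fl/fl and 12 +/+ members, and a Cd3 sum of 2 kept 6 and 2 barcodes outside. Farther out, 176 fl/fl and 134 +/+ barcodes had the NK markers together with at least 4 Cd3 UMIs. A single Cd79a UMI was seen in 2 fl/fl members and 1 +/+ member, and 4 fl/fl barcodes and 1 +/+ barcode were outside for their Cd79a count.

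Genes outside the rule matched the label. Of 24 other NK identity genes, a list chosen with results of these data known, a median of 17 per fl/fl and 18 per +/+ barcode had a UMI, and the list summed to a median of 206.5 and 179 UMIs per barcode. At least 5 of them were seen in all 182 fl/fl barcodes and in 157 of the 159 +/+ barcodes. Nkg7, a granule membrane protein of killer cells, had a UMI in 94.9% (90.6 to 97.7) of fl/fl and 96.9% (92.8 to 99.0) of +/+ NK barcodes thinned to 2000 UMIs each, a depth that 178 fl/fl and 159 +/+ NK barcodes reached (97.8% and 98.7% unthinned). In thinned B barcodes of the same libraries (at least 2 Cd79a UMIs, at most 1 Cd3 and at most 1 NK marker UMI), which should lack it, the share was 0% and 0%. Gzma, granzyme A, had a UMI in 91.6% (86.5 to 95.2) of fl/fl and 93.7% (88.7 to 96.9) of +/+ NK barcodes thinned (92.3% and 94.97% unthinned), against 0.300% and 0.185% of B barcodes. Nkg7 and Gzma were not particular to NK barcodes. Barcodes with the NK markers and at least 4 Cd3 UMIs numbered 176 in fl/fl and 134 in +/+. Unthinned, 163 and 128 of them held a Nkg7 UMI, and 101 and 72 a Gzma UMI. Tyrobp, the DAP12 adaptor that carries the signal of several activating receptors, was seen in 97.8% (94.3 to 99.4) of fl/fl and 96.9% (92.8 to 99.0) of +/+ NK barcodes thinned (97.8% and 98.1% unthinned), against 7.57% and 8.70% of B barcodes.

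**Figure D1:**
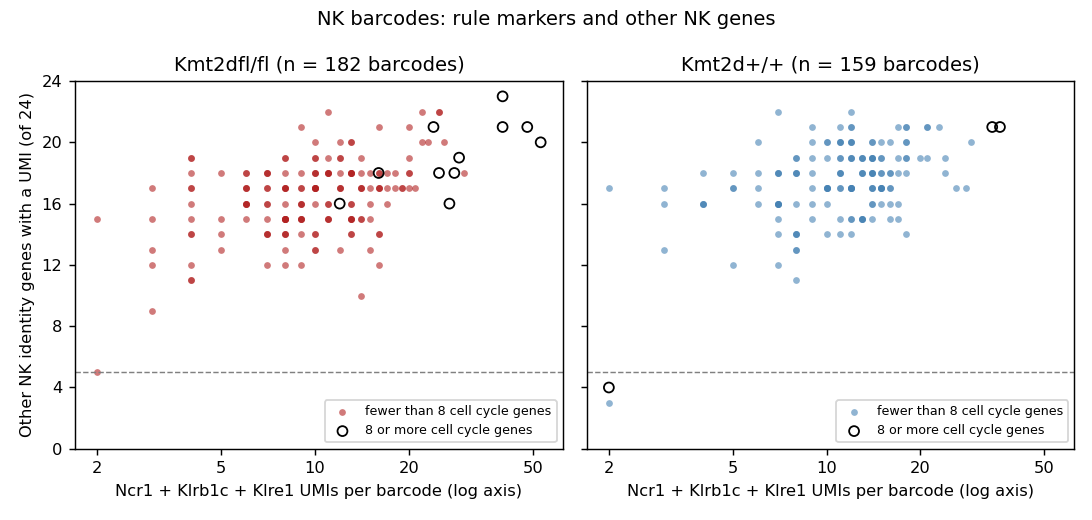
Each point is 1 NK barcode, fl/fl (182) on the left and +/+ (159) on the right; the x axis is its summed Ncr1, Klrb1c and Klre1 UMIs (log axis) and the y axis how many of 24 other NK identity genes had a UMI. Open circles are barcodes with at least 8 of 18 cell cycle genes, 11 in fl/fl and 3 in +/+, and 2 +/+ barcodes lie under the dashed line at 5 genes.

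Of the 2 genes that name the sort, Foxp3 had no UMI in NK barcodes and Cd4 had next to none, while some other Treg genes were seen. Foxp3 (ENSMUSG00000039521, chrX:7573644-7595245, plus strand), the transcription factor of Treg cells at whose locus the Cre sits, had no UMI in 182 fl/fl NK barcodes, which allows a share of barcodes with a UMI of up to 2.01%, and none in 159 +/+ NK barcodes (up to 2.29%). These limits hold for barcodes with a UMI and not for cells that express the gene. Among thinned Cd4 T barcodes, those with at least 2 Cd3 UMIs, a Cd4 UMI, no Cd8a or Cd8b1 UMI and at most 1 NK marker UMI, 3.95% and 5.19% held a Foxp3 UMI at the same depth. Cd4 had 0 UMIs in fl/fl and 6 UMIs in +/+ NK barcodes. Whether Cre had acted in these cells was not tested. The 12 Treg genes summed to 161 CPM in fl/fl and 185 CPM in +/+. Ikzf2, the Helios factor, was seen in 11.2% (6.9998 to 16.8) of fl/fl and 9.43% (5.38 to 15.1) of +/+ NK barcodes thinned (19.2% and 15.1% unthinned), against 64.2% and 66.9% of Cd4 T and 1.05% and 0.556% of B barcodes. Tnfrsf18, the GITR receptor, was seen in 7.30% (3.95 to 12.2) of fl/fl and 11.9% (7.35 to 18.03) of +/+ NK barcodes thinned (14.3% and 21.4% unthinned), against 17.8% and 27.8% of Cd4 T and 2.10% and 2.22% of B barcodes. Ctla4, an inhibitory receptor, was seen in 3.93% (1.60 to 7.93) of fl/fl and 5.03% (2.20 to 9.67) of +/+ NK barcodes thinned (9.89% and 6.92% unthinned), below the share in B barcodes (6.74% and 6.67%), a level that can be background. T cell receptor constant genes were nonetheless present: Trbc2 was at 282 CPM in fl/fl and 248 CPM in +/+ and Trbc1 at 265 CPM in fl/fl and 261 CPM in +/+, while Trac was at 19.4 CPM in fl/fl and 25.3 CPM in +/+. A Trbc2 UMI was seen in 30.9% (24.2 to 38.2) of fl/fl and 32.1% (24.9 to 39.9) of +/+ NK barcodes thinned (43.4% and 43.4% unthinned), in 90.5% and 89.6% of Cd8 T barcodes (at least 2 Cd3 UMIs and 2 Cd8a or Cd8b1 UMIs, no Cd4) and in 1.198% and 1.30% of B barcodes. The Trbc genes are near-identical copies that may share reads. Neither differed between the libraries beyond its counting interval, with log2 ratios, fl/fl over +/+, of 0.19 (-0.09 to 0.47) and 0.02 (-0.26 to 0.30).

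The 15 genes highest in NK barcodes relative to the other classes (Cd3-positive barcodes with NK markers aside), among genes at 50 CPM or more in both libraries, included 10 genes on chromosome 6, where the NK gene complex lies. The rule genes Klrb1c and Klre1 are among the 10, and the share of all eligible genes on that chromosome was not computed. Beside the 3 rule genes they were Cma1, Klra4, Klra9, Phactr3, Klrb1a, Adamts14, Klra8, Styk1, Klri2, Klra7, Klrb1b and Cdc20b. The order is a description, since membership was set on genes that are expressed together with these. Cma1 (ENSMUSG00000022225, chr14:55941451-55944675, minus strand), the mast cell chymase, was at 206 CPM in fl/fl and 169 CPM in +/+ NK barcodes, and had no UMI in the Cd8 T, Cd4 T and B barcodes of either library. Klra4 (ENSMUSG00000079852, chr6:130043731-130067271, minus strand), the Ly49D activating receptor, was at 1337 CPM in fl/fl and 928 CPM in +/+ NK barcodes, against 2.53 and 0.971 CPM in the fl/fl and +/+ Cd8 T barcodes. Klra8 (ENSMUSG00000089727, chr6:130115226-130129898, minus strand), the Ly49H receptor that reads a cytomegalovirus protein, was at 1098 CPM in fl/fl and 1149 CPM in +/+ NK barcodes, against 7.95 and 0.971 CPM in Cd8 T barcodes. Styk1, a receptor-like kinase, was at 128 CPM in fl/fl and 132 CPM in +/+ NK barcodes, and Klri2, a partner chain of KLRE1, at 429 CPM in fl/fl and 447 CPM in +/+ NK barcodes. Of the 12 genes of these 15 in the RefSeq promoter table, 5 had a window with TGTGGT, 0 had one with AGGTGT and 2 had one with AGGAAGT, counting a gene when any of its windows held the letters. The 5 were the 3 rule genes, which chose the members, and Cma1 and Klrb1a. Over all windows the shares were 16.8%, 13.7% and 9.35%, counted per window and not per gene, so no excess is read from these counts.

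**Figure D2:**
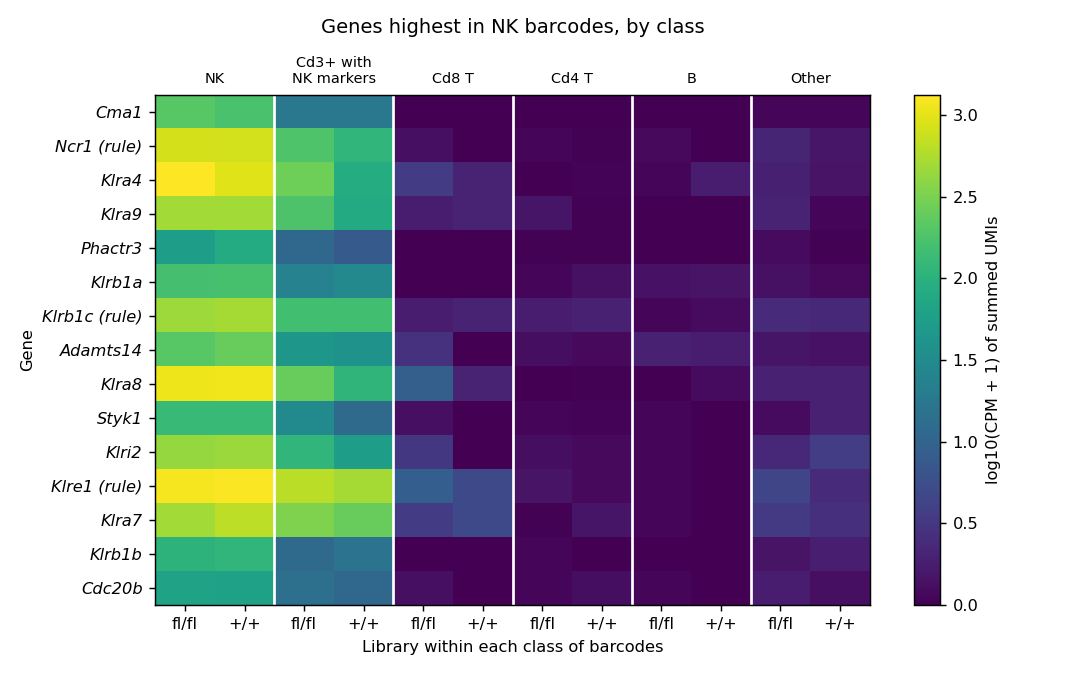
Colour is log10(CPM + 1) of summed UMIs for the 15 genes highest in NK barcodes (rows) in 6 classes of barcodes, fl/fl left of +/+ in each. The NK columns are brightest by the way genes were ranked, Cd3-positive barcodes with NK markers come next, and Cd8 T, Cd4 T and B barcodes stay below 10 CPM in all 15 genes.

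Between the libraries, 3884 genes reached 50 CPM in the NK barcodes of one or both, rule genes left out, and their median log2 ratio, fl/fl over +/+, was -0.07. A gene was counted as higher or lower when its CPM ratio was at least 2-fold with an interval excluding 1, a rule of size and not a test. It was met by 38 genes higher in fl/fl (0.978% of those measured) and 58 lower (1.49%). None of the 24 other NK identity genes was among either set, and their median log2 ratio was -0.04. Across the 11 lists of NK stages, receptors, signalling, granules, cytokines, factors and homing described next, 1 gene was higher (Irf2) and 2 were lower (Fcgr3 and Cd44). How many genes of each list were measured is given with the list. Beside 0.978% and 1.49% over all measured genes, counts this low in lists this short are not read as a result about NK genes.

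**Figure D3:**
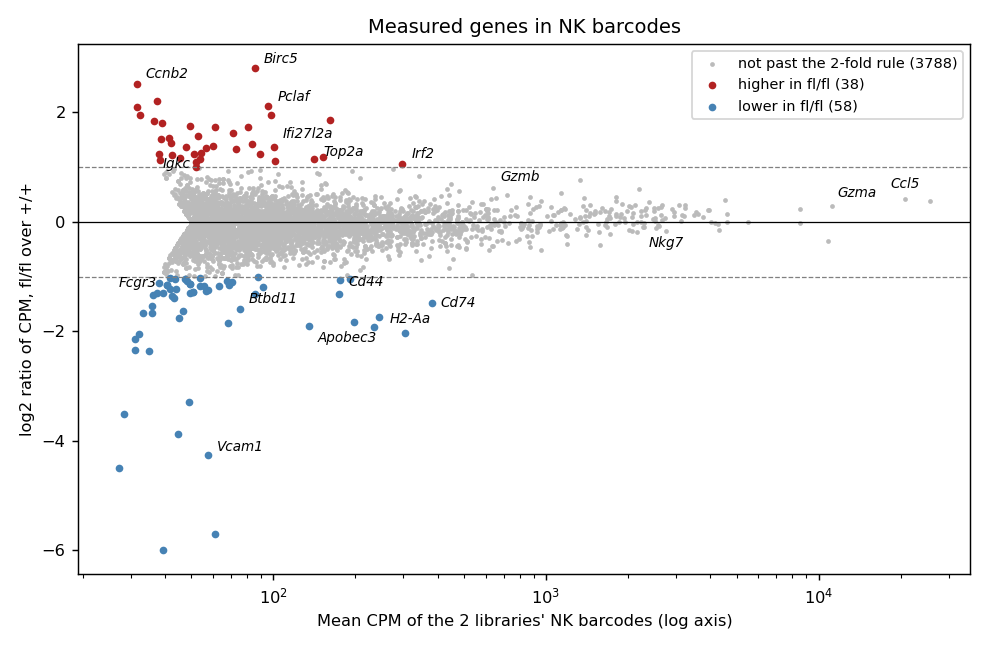
Each point is 1 of 3884 measured genes in NK barcodes, by mean CPM (log axis) and log2 ratio of CPM, fl/fl over +/+; red points are the 38 higher and blue points the 58 lower genes, dashed lines mark 2-fold, and Cadm1, with no UMI in fl/fl, is drawn at the lower edge. The NK effector genes Gzma, Ccl5 and Nkg7 lie near 0, and the named red points other than Irf2, Igkc and Ifi27l2a are cell cycle genes.

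The Ly49 receptors, encoded by Klra genes, read MHC class I molecules and are switched on in part of the NK cells each, so that a single cell carries a mixture. Of 11 listed genes 6 were measured, with 0 higher and 0 lower and a median log2 ratio of 0.23, beside -0.07 over all genes. Klra3 (Ly49C), an inhibitory receptor, was at 385 UMIs (440.2 CPM) in the fl/fl and 185 UMIs (247 CPM) in the +/+ NK barcodes, a log2 ratio of 0.84 (0.58 to 1.10). Klra4 (Ly49D) followed at 0.53 (0.39 to 0.66) and Klra1 (Ly49A) at 0.45 (0.10 to 0.81), from 202 and 148 CPM in fl/fl and +/+. Klra7 (Ly49G) was the other way, at 495 CPM in fl/fl and 659 CPM in +/+, a log2 ratio of -0.41 (-0.60 to -0.22). Klra8 and Klra9 had ratios of -0.07 (-0.20 to 0.07) and 0.00 (-0.20 to 0.21). The Klra genes are near-identical copies, and how reads shared between them were counted is not given in the sources used here, so the split among members is uncertain. After thinning, Klra4 was seen in 49.4% (41.9 to 57.0) of fl/fl and 40.3% (32.6 to 48.3) of +/+ NK barcodes, Klra8 in 52.8% (45.2 to 60.3) of fl/fl and 53.5% (45.4 to 61.4) of +/+ NK barcodes, Klra3 in 36.5% (29.4 to 44.0) of fl/fl and 25.8% (19.2 to 33.3) of +/+ NK barcodes and Klra1 in 12.4% (7.91 to 18.1) of fl/fl and 11.3% (6.85 to 17.3) of +/+ NK barcodes (53.3% and 40.3%, 53.8% and 55.3%, 39.6% and 33.3% and 14.3% and 15.1% unthinned). Those intervals overlap between the libraries for each of the 4 genes. None of the 4 exceeded 1% of B barcodes.

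A thinned NK barcode carried between 0 and 6 different Ly49 genes in fl/fl (median 3, mean 2.48) and between 0 and 5 in +/+ (median 2, mean 2.29). No Ly49 gene was seen in 17 of 178 fl/fl and 18 of 159 +/+ barcodes, and 3 were seen in 45 of each library. Without thinning the medians were 3 and 3, and 16 of 182 fl/fl and 13 of 159 +/+ barcodes had none.

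The CD94, NKG2 and NKR-P1 receptors, the other large group of the NK gene complex, were close in the libraries. Of 11 listed genes 9 were measured, with 0 higher and 0 lower and a median log2 ratio of -0.02. Klrd1, which encodes CD94, the shared chain of the NKG2 receptors, was at 1334 UMIs (1525 CPM) in the fl/fl and 1025 UMIs (1367 CPM) in the +/+ NK barcodes, a log2 ratio of 0.16 (0.04 to 0.28). Klrc1, the inhibitory NKG2A chain, was at 441 CPM in fl/fl and 367 CPM in +/+ (0.27 (0.04 to 0.50)). Klrk1, the activating NKG2D receptor for stress ligands, was at 807 CPM in fl/fl and 817 CPM in +/+ (-0.02 (-0.18 to 0.14)). Klrg1, an inhibitory receptor of mature cells, was at 189 CPM in fl/fl and 145 CPM in +/+ (0.38 (0.02 to 0.74)). Klrc and Klrb1 genes, like the Klra genes, have near-identical copies between which reads may be shared.

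Among 17 other activating and inhibitory receptors 9 were measured, with 0 higher and 1 lower. The lower one was Fcgr3 (ENSMUSG00000059498, chr1:171051174-171064935, minus strand), the CD16 receptor through which NK cells kill antibody-coated targets, at 21 UMIs (24.01 CPM) in the fl/fl and 46 UMIs (61.3 CPM) in the +/+ NK barcodes. Its log2 ratio was -1.35 (-2.17 to -0.58), and it was seen in 21 of the 182 fl/fl and 32 of the 159 +/+ barcodes.
Cd160, another activating receptor, was at 106 CPM in fl/fl and 69.3 CPM in +/+ (0.62 (0.11 to 1.14)), and Crtam, an adhesion receptor, at 59.5 CPM in fl/fl and 37.3 CPM in +/+ (0.67 (-0.02 to 1.39)). Cd244a, the 2B4 receptor, and Cd48, its ligand, were at 0.26 (-0.07 to 0.59) and 0.19 (-0.02 to 0.40).

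Receptor signals pass through adaptors and kinases, of which 18 of 19 were measured with 0 higher and 0 lower and a median log2 ratio of -0.09. Tyrobp was at 2565 CPM in fl/fl and 2452 CPM in +/+ (0.06 (-0.02 to 0.15)) and Fcer1g, the adaptor of CD16 and NKp46, at 2531 CPM in fl/fl and 2679 CPM in +/+ (-0.08 (-0.17 to 0.01)). Sh2d1a, the SAP adaptor of SLAM receptors, was at 231 CPM in fl/fl and 173 CPM in +/+ (0.41 (0.09 to 0.74)). Txk, a Tec family kinase, was at 428 CPM in fl/fl and 592 CPM in +/+ (-0.47 (-0.67 to -0.27)), and Sh2d2a, a T and NK cell adaptor, at 133 CPM in fl/fl and 199 CPM in +/+ (-0.58 (-0.95 to -0.22)).

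Of 20 cytotoxic granule and death ligand genes 15 were measured, again with 0 higher and 0 lower and a median log2 ratio of -0.10. Gzma was at 10733 UMIs (12273 CPM) in the fl/fl and 7539 UMIs (10052 CPM) in the +/+ NK barcodes, a log2 ratio of 0.29 (0.25 to 0.33). A thinned barcode held a median of 25.5 Gzma UMIs in fl/fl and 24 in +/+, with quartiles of 16 to 36 and 14 to 32, so the distributions overlapped over nearly their whole range. Gzmb, granzyme B (ENSMUSG00000015437, chr14:56258838-56262260, minus strand), was at 679 UMIs (776 CPM) in the fl/fl and 379 UMIs (505 CPM) in the +/+ NK barcodes, a log2 ratio of 0.62 (0.44 to 0.80). It was seen in 64.6% (57.1 to 71.6) of fl/fl and 56.0% (47.9 to 63.8) of +/+ NK barcodes thinned (75.3% and 71.1% unthinned), intervals that overlap, against 0.0749% and 0.185% of B barcodes. Prf1, perforin, was at 694 CPM in fl/fl and 595 CPM in +/+ (0.22 (0.04 to 0.40)). Fasl, the death ligand that engages FAS, was at 132 CPM in fl/fl and 201 CPM in +/+ (-0.61 (-0.98 to -0.25)), and Srgn, the granule proteoglycan serglycin, at 837 CPM in fl/fl and 925 CPM in +/+ (-0.14 (-0.30 to 0.01)).

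The list of chemokine and cytokine genes summed to 28959 CPM in fl/fl and 22275 CPM in +/+ NK barcodes. Of its 12 genes 6 were measured, 0 higher and 0 lower, with a median log2 ratio of 0.20. Ccl5, which draws T cells and monocytes, was at 20662 UMIs (23627 CPM) in the fl/fl and 13298 UMIs (17730 CPM) in the +/+ NK barcodes, a log2 ratio of 0.41 (0.38 to 0.45). Its thinned median was 47 UMIs per fl/fl barcode (quartiles 30 to 68) and 33 UMIs per +/+ barcode (22.5 to 49). Ccl3 and Ccl4, the MIP-1 chemokines, were at 1584 and 1171 CPM (0.44 (0.31 to 0.56)) and at 2697 and 2267 CPM (0.25 (0.16 to 0.34)) in fl/fl and +/+. Ifng, interferon gamma, was at 438 CPM in fl/fl and 397 CPM in +/+ (0.14 (-0.08 to 0.36)), and Xcl1, lymphotactin, at 504 CPM in fl/fl and 601 CPM in +/+ (-0.25 (-0.45 to -0.06)), and at -0.96 in barcodes with no Cd3 and no Cd79a UMI. Of 28 cytokine receptor and JAK-STAT genes 19 were measured, with 0 higher and 0 lower and a median of -0.15. Il2rb, the shared interleukin 2 and 15 receptor chain, was at 829 CPM in fl/fl and 893 CPM in +/+ (-0.11 (-0.26 to 0.05)), and Stat3 and Pim1, a cytokine-induced kinase, were at -0.41 (-0.63 to -0.20) and -0.44 (-0.66 to -0.21).

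Among 26 NK transcription factor genes 24 were measured, with 1 higher and 0 lower and a median log2 ratio of -0.13. Eomes and Tbx21, the T-box factors that define and mature NK cells, were at 206 CPM in fl/fl and 251 CPM in +/+ (-0.28 (-0.59 to 0.02)) and at 292 CPM in fl/fl and 292 CPM in +/+ (-0.00 (-0.27 to 0.27)). Id2, which holds innate lymphocytes off the B and T cell path, was at 1045 CPM in fl/fl and 1036 CPM in +/+ (0.01 (-0.13 to 0.15)). Nfil3, an early NK lineage factor, was at 52.6 CPM in fl/fl and 93.3 CPM in +/+ (-0.83 (-1.40 to -0.27)), and Gata3 at 64.0 CPM in fl/fl and 103 CPM in +/+ (-0.68 (-1.20 to -0.17)). The higher gene was Irf2 (ENSMUSG00000031627, chr8:46739732-46847458, plus strand), an interferon regulatory factor that mouse NK cells need to mature. It had 351 UMIs (401 CPM) in the fl/fl and 144 UMIs (192 CPM) in the +/+ NK barcodes, a log2 ratio of 1.06 (0.78 to 1.35), and was seen in 138 of the 182 fl/fl and 87 of the 159 +/+ barcodes. After thinning it was seen in 59.0% (51.4 to 66.3) of fl/fl and 28.3% (21.5 to 36.0) of +/+ NK barcodes (75.8% and 54.7% unthinned), intervals that do not overlap. The Irf2 UMIs were spread over barcodes, the richest holding 9 in fl/fl and 4 in +/+.

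Homing and egress genes were measured for 13 of 18, with 0 higher and 1 lower and a median log2 ratio of -0.16. Cd44, the hyaluronan receptor, was at 99 UMIs (113 CPM) in the fl/fl and 178 UMIs (237 CPM) in the +/+ NK barcodes, a log2 ratio of -1.07 (-1.44 to -0.71). It was seen in 61 of the 182 fl/fl and 79 of the 159 +/+ barcodes. Without the 14 barcodes rich in cell cycle genes and the 2 +/+ barcodes poor in NK genes described below, 15 in all since 1 was both, it was at -0.80. Cx3cr1, the fractalkine receptor of mature NK cells, was at 103 UMIs (118 CPM) in the fl/fl and 46 UMIs (61.3 CPM) in the +/+ NK barcodes (0.94 (0.43 to 1.48)). Ccr2, a receptor for inflammatory chemokines, was at 104 CPM in fl/fl and 173 CPM in +/+ (-0.74 (-1.14 to -0.34)). S1pr5, which lets NK cells leave tissue, was at 99.5 CPM in fl/fl and 111 CPM in +/+ (-0.15 (-0.60 to 0.30)). Itga4, an integrin chain, was at 972 CPM in fl/fl and 1085 CPM in +/+ (-0.16 (-0.30 to -0.02)).

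Genes of NK maturation stages met the 2-fold rule in neither direction. Of the shares of barcodes by stage markers, only that with markers of both stages had intervals apart between the 2 libraries, and only just. Of the immature genes 10 of 14 were measured (median log2 ratio -0.08) and of the mature genes 15 of 15 (median 0.08), with 0 higher and 0 lower in either list. Over all measured genes 0.978% were higher and 1.49% lower, so a count of 0 in lists this short says little. Emb, an immature-stage adhesion gene, was at 204 CPM in fl/fl and 327 CPM in +/+ (-0.68 (-0.97 to -0.40)), and Zeb2, a factor of terminal maturation, at 1012 CPM in fl/fl and 1104 CPM in +/+ (-0.13 (-0.26 to 0.01)). Each thinned barcode was placed by its summed UMIs of 8 mature markers (Itgam, Klrg1, Cx3cr1, S1pr5, Zeb2, Cma1, Gzmb and Spn) and 8 immature markers (Cd27, Kit, Il7r, Thy1, Emb, Cxcr3, Ctla2a and Ltb). The mature sum was larger in 144 of 178 fl/fl barcodes (80.9%, 74.3 to 86.4) and in 119 of 159 +/+ barcodes (74.8%, 67.4 to 81.4). The immature sum was larger in 33 fl/fl (18.5%, 13.1 to 25.04) and 31 +/+ barcodes (19.5%, 13.6 to 26.5). The cut divides a range, and 14 fl/fl and 21 +/+ barcodes lay within 1 UMI of it. Barcodes with mature markers alone were 56.2% (48.6 to 63.6) of fl/fl and 44.0% (36.2 to 52.1) of +/+, and barcodes with both kinds 33.1% (26.3 to 40.6) and 49.1% (41.1 to 57.1). The interval of the share with both kinds in fl/fl ends at 40.6% and that in +/+ begins at 41.1%, while the intervals of the other shares overlap. Barcodes of 1 library are not replicates of a genotype. Itgam (CD11b) without Cd27 was seen in 28.1% (21.6 to 35.3) and 20.8% (14.7 to 27.9), and Cd27 without Itgam in 5.62% (2.73 to 10.1) and 9.43% (5.38 to 15.1).

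Some listed genes not used for the cut differed between its sides in the same way in both libraries. Only genes of the NK and innate lymphoid cell lists were examined, and the share over all genes was not computed. Of these, 84 had at least 40 UMIs over both sides and libraries, a limit chosen after values were seen. In 11 the counting intervals lay apart with the mature side higher in fl/fl and in +/+, and in 4 with the immature side higher in both. The other 69 did not lie apart in the same direction in both libraries. Inpp4b, under the UMI limit and so not counted, lay apart with the immature side higher in both. It was at 152 CPM on the immature side against 6.94 CPM on the mature side in fl/fl, and at 194 against 4.20 CPM in +/+. The 11 were Gzma, Prf1, Ccl4, Ccl5, Klra8, Klra9, Klrd1, Il12rb2, Irf8, Itga4 and Klf2, and the 4 were Xcl1, Tcf7, Tox and Ccr2. Gzma was at 14882 CPM on the mature side against 3697 CPM on the immature side in fl/fl and 13454 CPM on the mature side against 4661 CPM on the immature side in +/+. Prf1 was at 920.1 CPM on the mature side against 258 CPM on the immature side in fl/fl and 899 CPM on the mature side against 226 CPM on the immature side in +/+. Klra9 (Ly49I) was at 618 CPM on the mature side against 227 CPM on the immature side in fl/fl and 651 CPM on the mature side against 129 CPM on the immature side in +/+, and Il12rb2, an interleukin 12 receptor chain, at 517 CPM on the mature side against 242 CPM on the immature side in fl/fl and 571 CPM on the mature side against 258 CPM on the immature side in +/+. Xcl1 was at 90.3 CPM on the mature side against 1970 CPM on the immature side in fl/fl and 256 CPM on the mature side against 1758 CPM on the immature side in +/+. Tcf7, the TCF-1 factor of early NK cells, was at 31.2 CPM on the mature side against 258 CPM on the immature side in fl/fl and 50.4 CPM on the mature side against 306 CPM on the immature side in +/+, and Tox, another early factor, at 163 CPM on the mature side against 530.3 CPM on the immature side in fl/fl and 181 CPM on the mature side against 629 CPM on the immature side in +/+. Ly49 genes were fewer on the immature side: a mean of 2.03 genes per fl/fl barcode against 2.57 on the mature side, and of 1.58 per +/+ barcode against 2.53. None was seen in 10 of 33 fl/fl and 10 of 31 +/+ barcodes of the immature side, and in 7 of 144 and 5 of 119 of the mature side. These genes share barcodes with the markers that made the cut, so the sides are a description. The immature markers are not particular to NK cells, since Il7r is also a marker of group 1 innate lymphoid cells. Cxcr6, a marker of the same cells, had 2 UMIs in fl/fl and 3 in +/+ on the immature side, and 0 on the mature side of each. Itga1, another, had 1 and 3 UMIs on the immature side and 8 and 5 on the mature side, which holds more barcodes. Scaled, Itga1 was at 15.2 CPM on the immature side against 27.8 CPM on the mature side in fl/fl. In +/+ it was the other way, at 48.4 CPM against 21.0 CPM, and the intervals of the sides overlap in both libraries. Whether the immature side holds such cells was not tested.

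**Figure D4:**
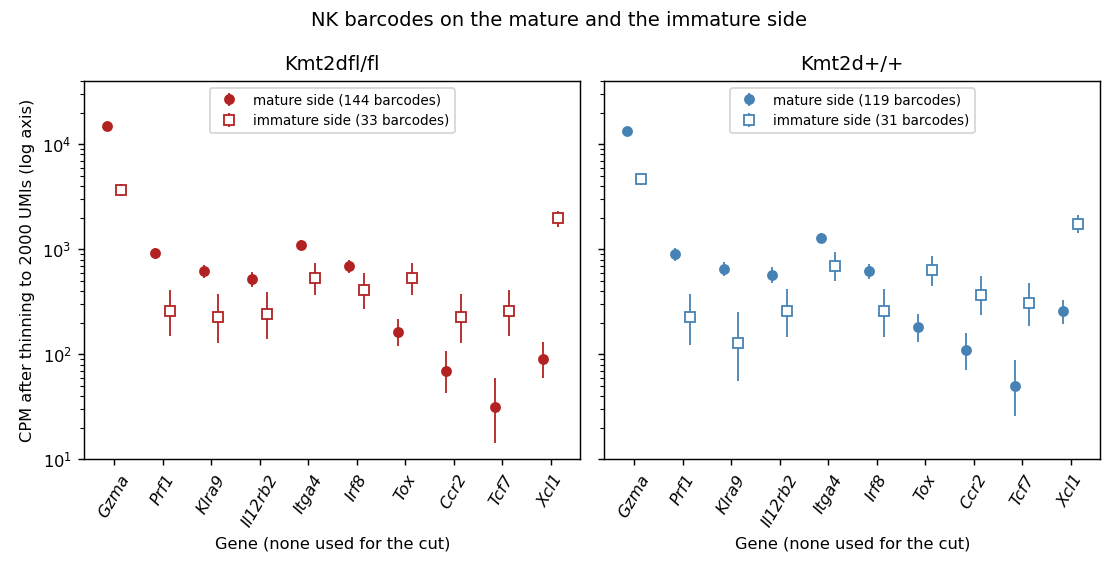
CPM (log axis) of 10 genes not used for the cut, in NK barcodes thinned to 2000 UMIs, for the mature side (filled circles, 144 fl/fl and 119 +/+ barcodes) and the immature side (open squares, 33 and 31), fl/fl left and +/+ right, with 95% counting intervals. Gzma to Irf8 are higher on the mature side and Tox to Xcl1 on the immature side in both libraries.

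Cell cycle genes were the largest group among the genes higher in fl/fl NK barcodes. Of 18 listed, 13 were measured, 7 were higher (Mki67, Top2a, Cdk1, Ccnb2, Birc5, Rrm2 and Ube2c) and 0 lower, with a median log2 ratio of 1.14 beside -0.07 over all genes. Birc5, the survivin subunit of the chromosomal passenger complex, was at 131 UMIs (149.8 CPM) in the fl/fl and 16 UMIs (21.3 CPM) in the +/+ NK barcodes, a log2 ratio of 2.81 (2.06 to 3.66). Top2a, the topoisomerase that untangles replicated DNA, was at 170 UMIs (194 CPM) in the fl/fl and 66 UMIs (88.0 CPM) in the +/+ NK barcodes (1.14 (0.73 to 1.58)), and at 0.11 without the barcodes rich in these genes. Pclaf, a partner of the replication clamp, was at 156 CPM in fl/fl and 36.0 CPM in +/+ (2.11 (1.51 to 2.76)), and Ccnb2, a mitotic cyclin, at 53.7 CPM in fl/fl and 9.33 CPM in +/+ (2.53 (1.37 to 3.92)). The 12 highest ratios that met the naming rule were those of Birc5, Ccnb2, Pclaf, Kif15, Hist1h2ap, Fbxo5, H1f5, Cdca8, Nusap1, Prc1, H2ac8 and Cdk1, genes of replication, chromatin assembly and mitosis. Their log2 ratios ran from 1.52 for Cdk1 to 2.81 for Birc5. Histone genes such as Hist1h2ap and H2ac8 have near-identical copies, so their counts are uncertain.

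These ratios came from few barcodes. At least 8 of the 18 cell cycle genes were seen in 11 of 182 fl/fl NK barcodes (6.04%, 3.06 to 10.6) and in 3 of 159 +/+ NK barcodes (1.89%, 0.391 to 5.41), and the intervals overlap. In +/+, 1 of the 3 was also 1 of the 2 barcodes poor in NK genes, with a marker sum of 2 and 59 UMIs of the B cell list, and 2 remained without it. In fl/fl, 1 of the 11, of 17267 UMIs with a marker sum of 27 and no Gzma UMI, held 51 UMIs of that list. After thinning, barcodes with at least 8 of the 18 genes were 8 of 178 (4.49%, 1.96 to 8.66) in fl/fl and 2 of 159 (1.26%, 0.153 to 4.47) in +/+. The 11 and 3 barcodes held 71.2% and 39.6% of the list's UMIs, and their median depth was 11258 and 11358 UMIs. Without them 13 genes were higher and 63 lower, and 7 of the 38 higher genes remained. The barcodes were chosen by cell cycle genes, so a fall of those genes' ratios without them follows from the choice and tests nothing. Thinned shares in the same libraries were 2.01% and 0.772% of Cd8 T, 2.56% and 1.92% of Cd4 T and 2.47% and 1.67% of B barcodes, fl/fl and +/+ in each. Cell cycle UMIs are counted here as transcripts, and cycling itself was not measured.

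Among genes lower in fl/fl, Apobec3 (ENSMUSG00000009585, chr15:79891659-79915906, plus strand), a cytidine deaminase that restricts retroviruses, had the lowest ratio under the naming rule. It was at 50 UMIs (57.2 CPM) in the fl/fl and 160 UMIs (213 CPM) in the +/+ NK barcodes, a log2 ratio of -1.90 (-2.39 to -1.43), and was seen in 40 of the 182 fl/fl and 92 of the 159 +/+ barcodes. After thinning it was seen in 14.04% (9.30 to 20.03) of fl/fl and 32.1% (24.9 to 39.9) of +/+ NK barcodes (21.98% and 57.9% unthinned), and the intervals do not overlap. The other 11 of the 12 lowest were Maml3, Btbd11, Slc6a6, Fcgr3, Man1c1, Ssbp2, Slc26a11, Wipi2, Clns1a, Atm and Pdss2. Maml3, a Notch coactivator, was at 20 UMIs (22.9 CPM) in the fl/fl and 53 UMIs (70.7 CPM) in the +/+ NK barcodes (-1.63 (-2.45 to -0.86)). Btbd11, an ankyrin repeat and BTB domain protein, was at 33 UMIs (37.7 CPM) in the fl/fl and 85 UMIs (113 CPM) in the +/+ NK barcodes (-1.59 (-2.21 to -0.99)), in 27 of the 182 fl/fl and 54 of the 159 +/+ barcodes. Atm, the kinase that signals DNA breaks, was at 26 UMIs (29.7 CPM) in the fl/fl and 54 UMIs (72.0 CPM) in the +/+ NK barcodes (-1.28 (-2.01 to -0.58)), and at -0.96 without the 15 barcodes left out for Cd44.

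Another set of lower genes rested on a few barcodes. The class II antigen presentation genes Cd74 and H2-Aa were at 175 UMIs (200.1 CPM) in the fl/fl and 421 UMIs (561 CPM) in the +/+ NK barcodes (-1.49 (-1.75 to -1.23)) and at 98 UMIs (112 CPM) in the fl/fl and 281 UMIs (375 CPM) in the +/+ NK barcodes (-1.74 (-2.09 to -1.40)). 1 +/+ barcode of 28415 UMIs, with a marker sum of 2 and no Nkg7 or Gzma UMI, held 52.4% of the B cell list's and 44.5% of the monocyte, macrophage and dendritic cell list's UMIs of that library. In fl/fl, 1 barcode of 9056 UMIs, with a marker sum of 6 and both Nkg7 and Gzma UMIs, held 45.6% of the B cell list's UMIs, and 66.3% of the Cd74 UMIs were in 1 barcode. The 2 lists summed to 456 and 628 CPM in fl/fl and to 1079 and 999 CPM in +/+ (306 and 570.2 CPM in fl/fl and 387 and 607 CPM in +/+ after thinning), with Pax5, Fcer2a, Cr2, Blk, Fcgr1 and Siglech at 0 in both libraries. Without the 2 +/+ barcodes with fewer than 5 other NK identity genes, this one among them, Cd74 had a log2 ratio of 0.03 and H2-Aa of -0.10. That leaves barcodes out of +/+ alone, and 45 genes were higher and 41 lower. Without barcodes of either library that held other cell types' markers, Cd74 was at -0.15 and H2-Aa at -0.16. Igkc, the kappa light chain constant gene, was the other way, at 71 UMIs (81.2 CPM) in the fl/fl and 24 UMIs (32.0 CPM) in the +/+ NK barcodes (1.34 (0.66 to 2.08)). It was seen in 58 of the 182 fl/fl and 23 of the 159 +/+ barcodes, with at most 3 UMIs in any fl/fl and 2 in any +/+ barcode. B barcodes were 15.6% of the filtered barcodes in fl/fl and 6.97% in +/+, and whether that moved Igkc in NK barcodes was not tested.

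Of 24 interferon response genes 6 were measured, with 1 higher and 0 lower and a median log2 ratio of 0.04. The higher one was Ifi27l2a, an interferon-induced mitochondrial protein, at 127 UMIs (145 CPM) in the fl/fl and 42 UMIs (56.0 CPM) in the +/+ NK barcodes, a log2 ratio of 1.37 (0.86 to 1.91). It was seen in 55 of the 182 fl/fl and 21 of the 159 +/+ barcodes. Bst2, tetherin, was at 76.6 CPM in fl/fl and 70.7 CPM in +/+ (0.12 (-0.42 to 0.66)), and Ifi47, an interferon-induced GTPase, had a log2 ratio of 0.04 (-0.43 to 0.51).

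Kmt2d (ENSMUSG00000048154, chr15:98831669-98871204, minus strand), the floxed gene, was at 48 UMIs (54.9 CPM) in the fl/fl and 59 UMIs (78.7 CPM) in the +/+ NK barcodes, a log2 ratio of -0.52 (-1.10 to 0.06), an interval that includes 0. It was seen in 8.99% (5.23 to 14.2) of fl/fl and 14.5% (9.40 to 20.9) of +/+ NK barcodes thinned (22.5% and 33.3% unthinned). Tags of a 3′ kit check nothing about a deletion elsewhere in the gene, and the labels do not say which exons are floxed. Of 18 histone H3K4 methyltransferase and H3K27 demethylase genes, Kmt2d's relatives, 8 were measured with 0 higher and 0 lower and a median log2 ratio of -0.15. P2rx7 (ENSMUSG00000029468, chr5:122643911-122691432, plus strand), the gene of an ion channel opened by extracellular ATP and part of the study's title, had 2 UMIs in fl/fl and 1 UMI in +/+ NK barcodes, too few for a ratio. At the same thinned depth a P2rx7 UMI was seen in 8.10% and 12.1% of fl/fl and +/+ Cd4 T barcodes, 1 of 178 fl/fl and 0 of 159 +/+ NK barcodes, and 0.599% and 0.926% of B barcodes. Of 15 purinergic genes 4 were measured (P2ry10, Entpd1, Adora2a and Panx1), with 0 higher and 0 lower and a median of -0.19. Entpd1, the CD39 ectoenzyme that breaks down ATP, was at 64.0 CPM in fl/fl and 84.0 CPM in +/+ (-0.39 (-0.94 to 0.15)), and Adora2a, an adenosine receptor, at 70.9 CPM in fl/fl and 81.3 CPM in +/+ (-0.20 (-0.73 to 0.34)).

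Of 23 genes listed for their large difference between the libraries in T cells, a list chosen on these same libraries, 7 were measured in NK barcodes, with 0 higher and 1 lower (Apobec3) and a median log2 ratio of -0.28. The values below are set side by side for classes of the same 2 libraries, and the difference between classes was not tested. Plac8, a small cysteine-rich protein, had a log2 ratio of 0.04 (-0.42 to 0.49) in NK barcodes and 2.42 (2.33 to 2.51) in Cd4 T barcodes. Its NK value rested on few barcodes, 1 of which held 57.1% of the +/+ Plac8 UMIs. Without the 15 barcodes left out for Cd44, Plac8 was at 1.501 (0.83 to 2.21) in NK barcodes, from 76 UMIs in fl/fl and 25 UMIs in +/+. It then met the rule for a higher gene, but the barcodes poor in NK genes left out there were of +/+ alone. Without barcodes of either library that held other cell types' markers, Plac8 was at 0.69. With barcodes weighted alike it was at 0.79, and after thinning at 0.95. It was at 1.59 at a marker sum of 3 or more, 1.37 with Klre1 out of the sum and -0.04 with no Cd3 and no Cd79a UMI, so its NK value depends on the setting. After thinning, Plac8 was seen in 8.43% (4.79 to 13.5) of fl/fl and 4.403% (1.79 to 8.86) of +/+ NK barcodes (17.0% and 9.43% unthinned), intervals that overlap, against 72.8% and 63.5% of B barcodes. Ccl4 was at 0.25 (0.16 to 0.34) in NK barcodes, with 2697 and 2267 CPM, and at 3.61 (3.32 to 3.91) in Cd4 T barcodes, with 54.6 CPM in fl/fl and 4.47 CPM in +/+. Gzmb was at 0.62 (0.44 to 0.80) in NK, 0.70 (0.38 to 1.02) in Cd8 T and 2.47 (2.29 to 2.67) in Cd4 T barcodes. Ryr2, an intracellular calcium channel lower in fl/fl Cd4 T barcodes (-3.21 (-3.56 to -2.88)), had no UMI in NK barcodes of either library. Apobec3 was lower in fl/fl in each class, at -2.04 (-2.48 to -1.62) in Cd3-positive barcodes with NK markers, -2.48 (-2.90 to -2.09) in Cd8 T, -2.86 (-2.99 to -2.72) in Cd4 T and -3.80 (-4.00 to -3.60) in B barcodes. Irf2 was higher in each, at 0.53 (0.26 to 0.80), 0.37 (0.17 to 0.57), 0.29 (0.23 to 0.35) and 0.79 (0.69 to 0.89) in the same order, and its NK interval lies above those of the Cd8 T and Cd4 T barcodes. Btbd11 was at -0.17 (-0.50 to 0.16), -0.30 (-0.54 to -0.07), -1.33 (-1.46 to -1.20) and -3.79 (-9.31 to -0.75), the last from 1 UMI in fl/fl and 6 UMIs in +/+.

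**Figure D5:**
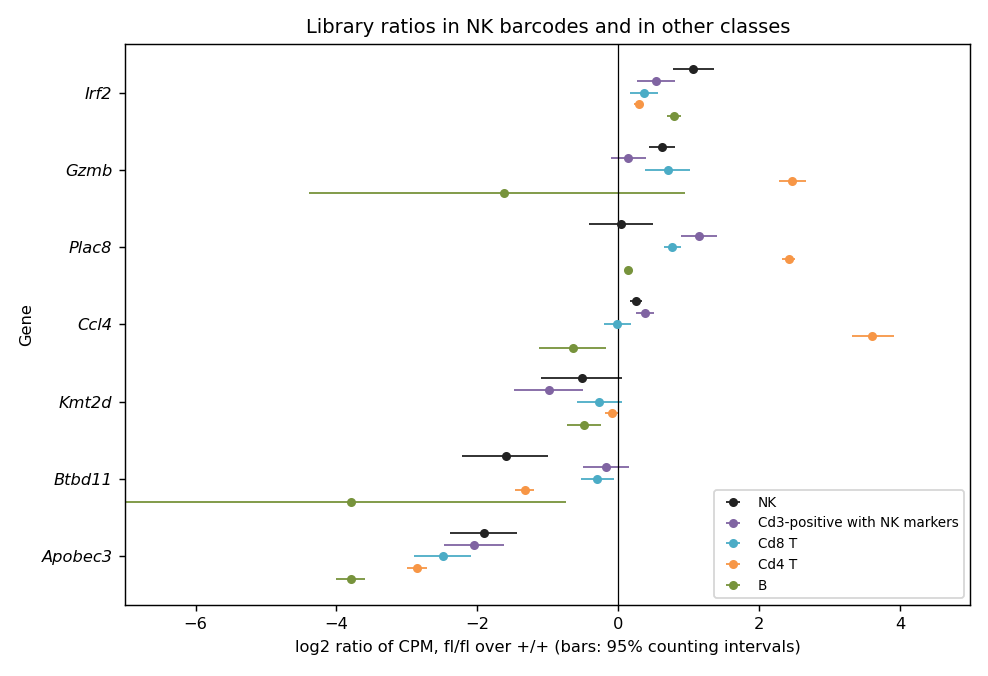
Log2 ratios of CPM, fl/fl over +/+, for 7 genes in NK barcodes and in 4 other classes of the same libraries, with 95% counting intervals (that of Btbd11 in B barcodes runs past the axis). Apobec3 is left of 0 and Irf2 right of 0 in all 5 classes, while Ccl4 lies at 0.25 in NK barcodes and at 3.61 in Cd4 T barcodes. Plac8 is near 0 in NK barcodes as drawn, at 1.501 without the 15 barcodes left out for Cd44 and at 0.69 without barcodes of either library that held other cell types' markers.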

How the data were processed

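The deposited matrices hold raw UMI counts per gene and barcode for 31253 genes, all whole numbers with no normalization. Cell Ranger 7.1.0, Seurat 4.1.1, fastp and the builds mm10 and GRCm38 appear in the submitters' processing notes, and the filters behind the deposited barcodes are not given in the sources used here. The fl/fl file held 8784 barcodes and 63989234 UMIs and the +/+ file 7947 barcodes and 53680614 UMIs. Barcodes under 500 genes (95 and 70) or over 10% mitochondrial counts (110 and 124) were left out. Gene coordinates are from GENCODE M21 (GRCm38), which holds 31107 of the IDs, and promoters from RefSeq (GRCm38.p6).

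Members, the other classes and the 33 gene lists were chosen with earlier results of these data known. UMIs were summed over each class and library and scaled to CPM. Log2 ratios, fl/fl over +/+, have exact conditional binomial 95% intervals, shares exact Clopper-Pearson intervals and levels exact Poisson intervals, all for counting error only. A 3′ kit counts molecules, so CPM is not scaled by gene length and levels are not ranked between genes. Detection shares were computed on barcodes thinned to 2000 UMIs, which left out 4 fl/fl and 0 +/+ NK barcodes. Doublets were called by the method of Scrublet, written anew, with an expected rate of 6%, 30 principal components, 2000 variable genes and Otsu's threshold; they were kept in and left out as an alternative. The rule of size was run on simulated counts drawn per gene and library and not per barcode. That cannot test calls whose UMIs lie in few barcodes.

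Named genes were the 12 highest and 12 lowest ratios among genes reaching 50 CPM whose interval did not include 1, at most 20% of the counts in 1 barcode of the library where the gene was higher, and the same direction after thinning and at a marker sum of 3 or more. Y-linked genes, Xist and Tsix, mitochondrial and ribosomal protein genes, antigen receptor segments and unnamed gene models were left out of these. Added were the markers, Kmt2d, P2rx7, Foxp3, Cd4, the list of genes differing in T cells and up to 4 members of each list by level and by ratio each way. Tbx21, Itga1 and Trac, and the 40 UMI rule for the sides of the maturation cut, were chosen after values were seen. The list genes Cd244, Klra13-ps and Mx1 matched no symbol in the files. Alternatives changed the marker sum, each marker, the Cd3, Cd79a and mitochondrial limits, the filters, doublets, depth, weighting, scaling, CPM floor and fold. Python 3.11.15, NumPy 2.4.6, SciPy 1.17.1, pandas 2.3.3, scikit-learn 1.9.0, scikit-image 0.26.0 and matplotlib 3.10.9 were used.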

Additional observations from a re-analysis of the deposited data

How the results depend on the processing

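The NK share ran from 1.88% to 2.17% in fl/fl and from 1.76% to 2.16% in +/+ over all alternatives, inside the counting interval of each. The 38 higher and 58 lower genes depended on depth, floor and fold. Thinned NK barcodes gave 90 lower genes, with 16 of the 38 and 20 of the 58 kept. With barcodes weighted alike 19 were higher. A floor of 100 CPM gave 14 higher and 16 lower genes, no floor 185 and 398, and a fold of 1.5 gave 114 and 238. Leaving out barcodes with at least 8 cell cycle genes gave 13 higher genes and turned 6 ratios: Cdca8 to -1.05, Cdk1 to -0.63, Fbxo5 to -0.045, H2ac8 to -2.63, Nusap1 to -0.045 and Rrm2 to -2.05. These 6 values are given without counts or intervals and are not read as lower levels in fl/fl. Leaving out the 2 +/+ barcodes with fewer than 5 other NK identity genes turned Cd74 to 0.032 and Cst3 to 0.34, and so did a marker sum of at least 3. Leaving out both sets gave 13 higher genes and 47 lower, with Cdca8 at -1.10, Cdk1 at -0.69, Fbxo5 at -0.10, H2ac8 at -2.69, Nusap1 at -0.10, Rrm2 at -2.10 and Cst3 at 0.42. None of these named genes was among the 13 or the 47. These 3 settings that leave out barcodes were chosen after seeing the data. Cst3, from the myeloid list, was also at 0.11 with Klre1 out of the marker sum and at 0.25 without barcodes holding other cell types' markers. Over all alternatives Apobec3 stayed between -2.04 and -1.26 and Irf2 between 1.00 and 1.30. No paired analysis was possible because each genotype has 1 library. Depth limits low genes, as with the 21 and 46 UMIs of Fcgr3.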

Other observations

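Lists of other innate lymphoid cells summed to 288 CPM in fl/fl and 405 CPM in +/+ NK barcodes for group 1, to 329 and 357 CPM for group 2 and to 61.7 and 127 CPM for group 3, fl/fl and +/+. Of the 11 group 2 genes 3 were measured with 0 higher and 0 lower, and their median log2 ratio was -0.33. A +/+ member of 7428 UMIs, with a marker sum of 5 and no Gzma UMI, held 7 of the 10 group 1 and 7 of the 10 group 3 genes. Of 10 group 1 genes, those of the tissue-resident cousins of NK cells, 4 were measured with 0 higher and 0 lower, and at least 5 were seen in 1 fl/fl and 6 +/+ barcodes. Rora was at 59.5 CPM in fl/fl and 74.7 CPM in +/+ (-0.33 (-0.90 to 0.24)), and Itga1, the CD49a integrin chain of resident cells, had 18 UMIs in fl/fl and 15 UMIs in +/+. Ahr, the aryl hydrocarbon receptor and the one measured gene of the group 3 list, was at 15 UMIs (17.2 CPM) in the fl/fl and 41 UMIs (54.7 CPM) in the +/+ NK barcodes (-1.67 (-2.63 to -0.79)), and at -0.88 without the 15 barcodes named in the report. Immediate-early genes were measured for 18 of 24, with 0 higher and 1 lower and a median log2 ratio of -0.14. The lower one was Fosb, at 109 UMIs (125 CPM) in the fl/fl and 193 UMIs (257 CPM) in the +/+ NK barcodes (-1.05 (-1.40 to -0.70)), with 37.3% of its +/+ UMIs in 1 barcode, and at -0.38 without the same 15 barcodes. Fos was at 362 CPM in fl/fl and 709 CPM in +/+ (-0.97 (-1.17 to -0.77)), with 28.4% of its +/+ UMIs in 1 barcode, and at -0.62 without the 15. It was seen in 44.4% (37.0 to 52.0) of fl/fl and 47.2% (39.2 to 55.2) of +/+ NK barcodes thinned (62.1% and 62.3% unthinned), against 55.9% and 63.1% of B barcodes. Jun was at 160.1 CPM in fl/fl and 244 CPM in +/+ (-0.61 (-0.94 to -0.28)), with 21.9% of its +/+ UMIs in 1 barcode, and at -0.25 without the 15, and was seen in 20.8% (15.1 to 27.5) of fl/fl and 18.2% (12.6 to 25.1) of +/+ NK barcodes thinned (36.8% and 35.8% unthinned), against 34.01% and 38.7% of B barcodes. MHC class I genes (13 of 13 measured, median -0.06), oxidative phosphorylation genes (19 of 20, median 0.16), glycolysis genes (12 of 16, median -0.06), BCL2 family genes (6 of 12, median -0.26) and housekeeping genes (13 of 15, median 0.15) had 0 higher and 0 lower each. Bcl2, the survival factor, was at 266 CPM in fl/fl and 432 CPM in +/+ (-0.70 (-0.95 to -0.45)).

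Barcodes with the NK markers and at least 2 Cd3 UMIs were about as many as NK barcodes, 191 of 8634 (2.21%, 1.91 to 2.54) in fl/fl and 138 of 7790 (1.77%, 1.49 to 2.09) in +/+. They were deeper, with medians of 5590 and 6361 UMIs. NK genes were lower in them than in NK barcodes of the same libraries: Cma1 was at 16.9 and 16.9 CPM, Klra4 at 274 and 85.4 CPM and Klra8 at 247 and 111 CPM in fl/fl and +/+. Cd4 was at 65.3 CPM in fl/fl and 65.1 CPM in +/+ and Foxp3 had 7 UMIs in fl/fl and 9 UMIs in +/+. P2rx7 was at 41.8 CPM in fl/fl and 51.6 CPM in +/+, a log2 ratio of -0.30 (-0.85 to 0.24), whereas NK barcodes held 2 P2rx7 UMIs in fl/fl and 1 in +/+. Whether these barcodes are T cells with NK receptors or droplets with more than 1 cell was not tested.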
